A study of Mus musculus with 9 samples.

Results

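Most of the genes described here encode enzymes that make, use or recycle glutathione and thioredoxin, or remove superoxide and hydrogen peroxide. The set, called antioxidant genes below, also holds the transcription factor gene Nfe2l2, the heme oxygenase Hmox1, the thioredoxin inhibitor Txnip and proteins that share only the name or fold of thioredoxin. It was taken by symbol: every gene whose platform symbol begins with Gsta, Gstk, Gstm, Gsto, Gstp, Gstt, Gstz, Mgst, Gpx and a digit, Prdx or Txn, with the superoxide dismutases Sod1, Sod2 and Sod3, and Cat, Hmox1, Gclc, Gclm, Nfe2l2, Nqo1, Gsr and Gss. This gave 50 genes with 79 probes, out of 9991 named genes and 45281 probes on the array. Of these, 48 genes with 72 probes were above background on at least 3 of the 9 arrays and were kept for testing, as were 8699 of all named genes. The symbols Gsr, Gss and Nqo1, and the peroxiredoxin Prdx6, had no named probe and were not analysed here. Gpx2 was detected on no array. Gpx5, a peroxidase known from the epididymis, was detected on ND replicate 2 only, where 2 of its 3 probes read 8.15 and 8.19 on the log2 scale. Adam7, another epididymis gene, read 9.30 on HFD replicate 1 and 7.45 to 8.17 on the other arrays.

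The tissue was whole epididymal white adipose tissue (WAT) of male C57BL/6J mice, a strain that the labels also spell C56BL/6J. The labels count 30 mice that arrived at 4 weeks of age, had 1 week on the AIN-76 semi-purified diet and then ate their diets for 16 weeks, with 10 mice per group. The study's methods give other group sizes and describe the diet by energy, and the values printed here are those of the labels. The ND group had the normal diet. The HFD group had a high-fat diet with 20% fat and 1% cholesterol, and the LU group had this same diet with 0.005% (w/w) luteolin, a plant flavone. Each group gave 3 arrays, which per the study's methods carried pooled RNA. How many mice went into a pool is not given in the sources used here, so each p-value reflects only how far these pooled samples scatter. HFD against ND asks what the fatty diet did, LU against HFD what luteolin added to it, and LU against ND how far the luteolin group lay from the normal diet. Each group serves 2 of these 3 comparisons, so values set side by side share arrays and are not independent of each other.

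Glutathione is a small peptide thiol. Glutamate-cysteine ligase makes its precursor, glutathione transferases (GSTs) couple it to reactive molecules such as the aldehydes of oxidized lipid, and glutathione peroxidases spend it to reduce hydrogen peroxide and lipid peroxides. Peroxiredoxins do the same work with thioredoxin, which thioredoxin reductases recharge with NADPH. Superoxide dismutases turn superoxide into hydrogen peroxide, which catalase splits. Many of these genes are targets of Nrf2 (gene Nfe2l2), a transcription factor that is held in the cytoplasm by Keap1 and binds the antioxidant response element in promoters.

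The core of that element, written TGACNNNGC with N for any base, was searched on both strands of the RefSeq promoter windows (GRCm38.p6, 250 bases before to 50 bases after a gene's start). A window was found by symbol for 42 of the 48 genes kept. Gclc, Gsta4, Gstt2, Hmox1, Sod3 and Txnl4a were not matched. The core letters stood in a window of 10 of the 42 genes (23.8%), against 14.0% of the 27025 genes in the table. Counted by window, it stood in 10 of their 57 windows (17.5%), against 12.4% of all 32851. These matches are letters, not measured binding. The 10 matches are printed with the bases around them, because the genes that hold them had calls of different kinds. Each is read 5′ to 3′ along the gene, with the core in capitals; where the match lies on the other strand, the capitals show its reverse complement.

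Gclm promoter match, chr3:122245307-122245606, + strand, 134 bases before the start: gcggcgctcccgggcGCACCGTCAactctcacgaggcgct
Gsta3 promoter match, chr1:21240335-21240634, + strand, 121 bases before the start: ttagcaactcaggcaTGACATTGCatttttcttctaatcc
Gstm5 promoter match, chr3:107895604-107895903, + strand, 42 bases before the start: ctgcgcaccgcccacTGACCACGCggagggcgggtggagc
Gstm7 promoter match, chr3:107931565-107931864, - strand, 129 bases before the start: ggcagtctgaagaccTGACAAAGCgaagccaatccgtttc
Mgst1 promoter match, chr6:138140277-138140576, + strand, 56 bases before the start: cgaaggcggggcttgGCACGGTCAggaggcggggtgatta
Nfe2l2 promoter match, chr2:75704614-75704913, - strand, 240 bases before the start: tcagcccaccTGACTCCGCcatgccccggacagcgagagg
Prdx1 promoter match, chr4:116685349-116685648, + strand, 133 bases before the start: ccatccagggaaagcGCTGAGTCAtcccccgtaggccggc
Sod1 promoter match, chr16:90220512-90220811, + strand, 56 bases before the start: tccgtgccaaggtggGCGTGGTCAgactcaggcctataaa
Txndc11 promoter match, chr16:11134483-11134782, - strand, 241 bases before the start: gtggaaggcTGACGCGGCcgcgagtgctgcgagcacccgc
Txnrd1 promoter match, chr10:82858956-82859255, + strand, 92 bases before the start: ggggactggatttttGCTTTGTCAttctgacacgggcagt

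The windows of Gsta3, Prdx1 and Sod1 all hold the core, and these genes fell, rose and fell in HFD against ND (log2 differences of -1.10, 0.23 and -0.45). Gclm, with a match 134 bases before its start, passed the test in neither diet comparison. The whole windows of Gpx3, which holds no match, and Gsta3 are shown because these were the members with a window that differed most between HFD and ND.

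Gpx3 promoter window, chr11:54902604-54902903, + strand: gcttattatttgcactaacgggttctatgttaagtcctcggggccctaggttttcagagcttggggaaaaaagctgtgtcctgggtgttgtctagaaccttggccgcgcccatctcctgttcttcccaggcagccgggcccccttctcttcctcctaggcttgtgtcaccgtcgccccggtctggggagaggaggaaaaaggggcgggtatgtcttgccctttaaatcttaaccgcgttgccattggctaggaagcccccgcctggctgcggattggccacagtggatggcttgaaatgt
Gsta3 promoter window, chr1:21240335-21240634, + strand: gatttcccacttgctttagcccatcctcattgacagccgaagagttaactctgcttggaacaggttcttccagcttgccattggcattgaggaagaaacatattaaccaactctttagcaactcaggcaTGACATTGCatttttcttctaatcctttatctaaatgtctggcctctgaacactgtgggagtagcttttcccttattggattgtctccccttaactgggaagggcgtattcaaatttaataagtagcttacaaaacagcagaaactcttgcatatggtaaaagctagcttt

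On each array 42.2% to 43.8% of all probes were detected, and background lay at 7.79 to 7.83 on the log2 scale. No 2 arrays held identical values, and the correlations between arrays were 0.973 to 0.998. The probe names used here cover a table of 17128 probes that the authors deposited, in which probes that differ between groups are over-represented: of the kept probes, 50.6% in that table and 6.15% outside it were called between HFD and ND, and 37.3% and 5.96% between LU and HFD. Counts of members are therefore read against all named genes. A call is an adjusted p under 0.05 in limma (Benjamini-Hochberg over the 20558 probes kept), each gene is read from its brightest probe, and a difference is one of group means on the log2 scale with its standard error (SE). Background was not subtracted, which makes differences of dim probes smaller. Whether very bright signals, such as those of Txnip and Gpx1 (15.2 to 15.9), also have smaller differences was not tested.

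Markers of several cell types in this tissue moved with the diets. Of 11 macrophage markers, 9 were higher and 1 was lower in HFD than in ND, and 10 were lower in LU than in HFD. Their summed signal ranged from 24140 to 26430 in ND, from 45670 to 51830 in HFD and from 30690 to 35090 in LU. For the 9 adipocyte markers, HFD had 1 higher and 7 lower, and LU against HFD had 5 higher and 0 lower, with sums of 217700 to 228400, 208800 to 219700 and 228600 to 232300. Of 4 fibroblast markers, HFD had 2 higher and 0 lower, and LU against HFD 0 higher and 3 lower. All 5 mast cell markers passed as lower in LU against HFD, and all 3 red cell markers as lower in HFD against ND. In whole tissue, fewer cells of a type and less RNA per cell cannot be told apart. The part of these cell types in the results below was not tested.

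**Figure D1:**
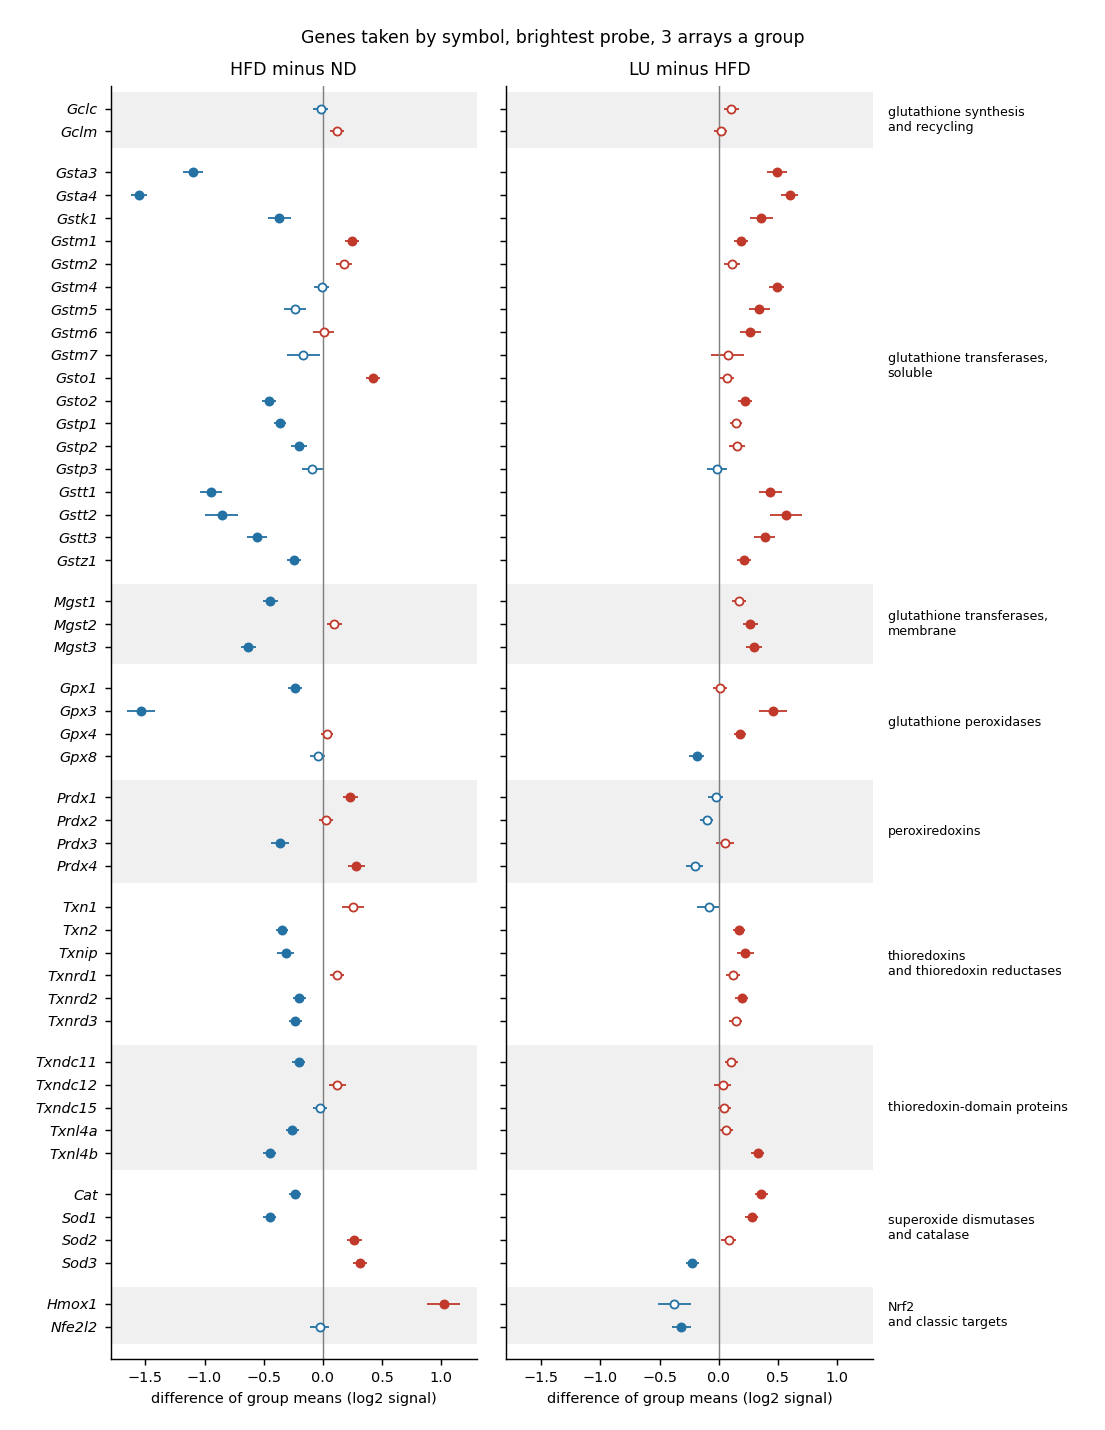
Difference of group means (log2 signal, with its SE) for the 48 antioxidant genes kept, from 3 arrays a group, HFD minus ND on the left, LU minus HFD on the right. Genes are ordered by role; red is above 0, blue below, and filled points have an adjusted p under 0.05. Gsta4, at -1.56 and 0.60, lies farthest below 0 on the left and farthest above 0 on the right.

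In HFD against ND, 31 of the 48 genes passed the test (64.6%), and 24 of them fell while 7 rose. Among all 8699 named genes, 52.9% passed (37.3% of all probes kept), with 27.7% lower and 25.2% higher in HFD. Lower calls made up 50.0% of the members and higher calls 14.6%. The median difference of the members was -0.20, against -0.027 for all named genes. In LU against HFD, 25 passed (52.1%), of which 22 rose and 3 fell. The shares among all named genes were 37.9% (28.0% of all probes kept), 19.7% higher and 18.2% lower in LU. Higher calls made up 45.8% of the members and lower calls 6.25%, and the median was 0.15 against 0.022. Most differences were small: 7 of the 31 genes called with the fatty diet and 1 of the 25 called with luteolin reached a fold change of 1.5. The share of all named genes at that fold change was not counted. The median size of called differences was 0.36 for members and 0.32 for all named genes in HFD against ND. In LU against HFD it was 0.30 and 0.29. With 3 arrays against 3, an exact two-sided permutation test of one gene cannot go below p = 0.1.

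The count of calls in LU against HFD fell when some single arrays were left out. Without LU replicate 2 it was 14, with 0 lower, and over all such omissions it lay between 14 and 29. Of the 25 calls, 11 held whichever array was left out, against 29 of 31 in HFD against ND. Leaving out an array leaves fewer arrays for every gene. How many calls of all named genes held under these omissions was not counted. Under the rank product of the methods, 7 members passed with the fatty diet and 4 with luteolin, and the share of all genes was not counted.

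**Figure D2:**
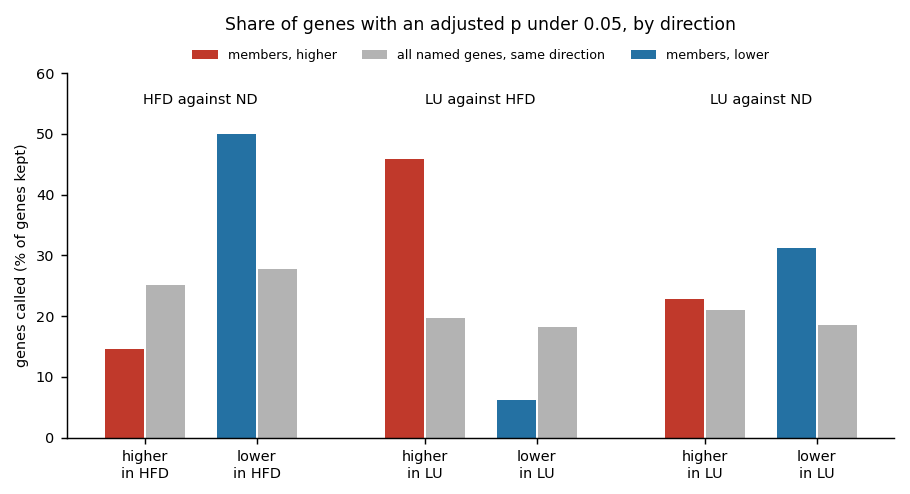
Percent of kept genes with an adjusted p under 0.05, by direction, for the 3 pairs of groups. Coloured bars are the 48 antioxidant genes and grey bars the 8699 named genes; the members' bar for lower in HFD stands at 50.0% beside 27.7%, and that for higher in LU against HFD at 45.8% beside 19.7%.

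The counts by role below are small and were not tested against the shares of all named genes. Those shares were 27.7% lower and 25.2% higher in HFD, and 19.7% higher and 18.2% lower in LU against HFD. Glutathione synthesis was represented by the 2 subunits of glutamate-cysteine ligase, and neither passed the test in any comparison. Gclm, the modifier subunit, read 10.85, 10.81 and 10.84 in ND, 10.93, 10.99 and 10.95 in HFD, and 10.91, 11.08 and 10.92 in LU. Its HFD arrays all lay above its ND arrays, with a difference of 0.12 ± 0.057, adjusted p = 0.12. Gclc, the catalytic subunit, stayed at background: it was detected on 0 ND, 1 HFD and 2 LU arrays, so no fold change is given.

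The soluble GSTs were the most numerous. Of 18 genes, 10 fell and 2 rose in HFD against ND, with a median of -0.24, and in LU against HFD 12 rose and 0 fell, with a median of 0.24. In the alpha class, Gsta4, whose enzyme is known for removing the lipid peroxidation product 4-hydroxynonenal, read 10.24, 10.24 and 10.12 in ND, 8.67, 8.57 and 8.69 in HFD, and 9.13, 9.38 and 9.21 in LU. The 3 groups did not overlap. It was 2.94-fold lower in HFD than in ND (-1.56 ± 0.070, adjusted p = 1.33e-08) and 1.51-fold higher in LU than in HFD (0.60 ± 0.070, adjusted p = 0.000112). Gsta3, another alpha-class enzyme, read 13.98, 13.73 and 13.78 in ND, 12.57, 12.79 and 12.83 in HFD, and 13.14, 13.33 and 13.19 in LU. It was 2.14-fold lower in HFD (-1.10 ± 0.085, adjusted p = 8.74e-07) and 1.4-fold higher in LU than in HFD (0.49 ± 0.085, adjusted p = 0.00127), again with no overlap of arrays. Its other probe gave -0.75 and 0.28, both past the test.

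Theta-class GSTs, which accept small halogenated and peroxide substrates, had the same order of group means. The signals of Gstt1 were 12.03, 12.14 and 11.73 in ND, 11.08, 10.90 and 11.09 in HFD, and 11.44, 11.56 and 11.38 in LU. They fell in HFD by a difference of -0.94 ± 0.096, adjusted p = 8.44e-06 and rose in LU against HFD by 0.44 ± 0.096, adjusted p = 0.00527. Gstt2 read 11.04, 11.48 and 10.76 in ND, 10.25, 10.07 and 10.39 in HFD, and 10.80, 10.83 and 10.79 in LU, and its ND arrays spread over a wide range. It was 1.81-fold lower in HFD (-0.86 ± 0.14, adjusted p = 0.000361) and 1.48-fold higher in LU (0.57 ± 0.14, adjusted p = 0.00906). Gstt3 gave -0.56 ± 0.088, adjusted p = 0.000296 and 0.39 ± 0.088, adjusted p = 0.0061. These 3 genes lie together on chromosome 10, and how far their probes share targets was not tested.

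**Figure D3:**
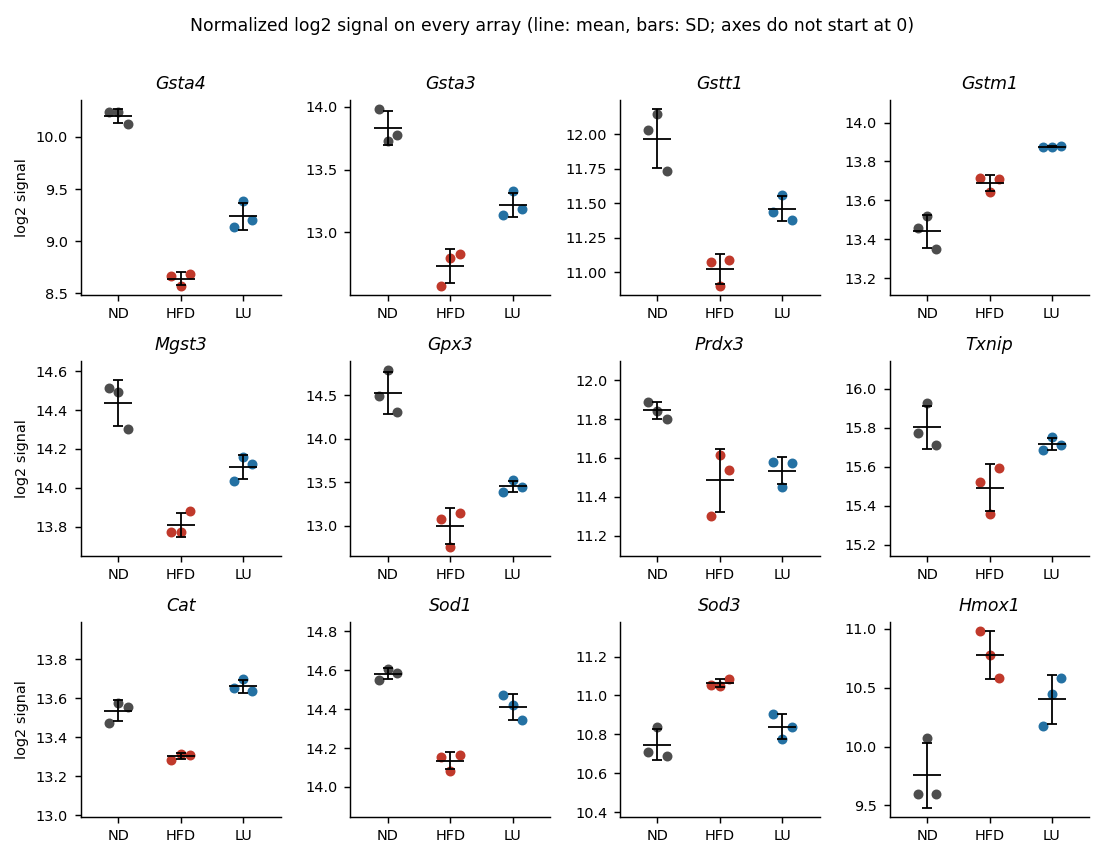
Normalized log2 signal of 12 antioxidant genes on every array (points), with the mean (line) and SD (bars) of the 3 arrays in ND, HFD and LU. Gsta4, Gsta3, Gstt1, Mgst3, Gpx3 and Sod1 have LU arrays between their HFD and ND arrays. Cat and Gstm1 have LU arrays above all others. Hmox1 has its highest mean in HFD, and its LU and HFD arrays overlap.

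In the mu class, a run of near-identical genes on chromosome 3, the dim Gstm7 had that order of means, and the other genes did not. Gstm1 read 13.46, 13.52 and 13.35 in ND, 13.71, 13.64 and 13.71 in HFD, and 13.87, 13.88 and 13.88 in LU, so that each group lay above the one before. It rose in HFD (0.25 ± 0.056, adjusted p = 0.00409) and further in LU (0.19 ± 0.056, adjusted p = 0.0263), though the latter call ended without HFD replicate 2 or any one of the LU arrays, where the difference was 0.16 to 0.19. Gstm4 read 9.87, 9.93 and 9.88 in ND, 9.78, 9.87 and 9.99 in HFD, and 10.40, 10.39 and 10.32 in LU. Its ND and HFD arrays overlapped (-0.011 ± 0.061, adjusted p = 0.907), while all LU arrays were higher (0.49 ± 0.061, adjusted p = 0.000161). Gstm5 gave 0.34 ± 0.092, adjusted p = 0.0152 in LU against HFD and Gstm6 0.26 ± 0.089, adjusted p = 0.043, and both calls depended on single arrays. That of Gstm5 ended without HFD replicate 2, LU replicate 1 or LU replicate 2 (differences of 0.28 to 0.33), and that of Gstm6 without any of these or without HFD replicate 1 (0.16 to 0.29). Of the 3 probes of Gstm6, the dimmest missed the threshold in LU against HFD (0.19, adjusted p = 0.0727 in limma). Gstm2 and Gstm7 passed in neither comparison on their brightest probes, and 1 other probe of Gstm2 was higher in HFD (0.19, adjusted p = 0.0437 in limma). Signal of one mu-class probe may include its neighbours, since the array cannot separate transcripts that match the same probe.

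In the pi class on chromosome 19, Gstp1, an abundant detoxifying enzyme in many tissues, read 12.15, 12.13 and 12.25 in ND, 11.79, 11.80 and 11.86 in HFD, and 11.96, 11.98 and 11.94 in LU. It fell in HFD (-0.36 ± 0.053, adjusted p = 0.000173), while LU against HFD gave 0.15 ± 0.053, adjusted p = 0.0586. Of its other probes, 1 also fell in HFD (-0.34) and 1 gave -0.12 (adjusted p = 0.152 in limma). Gstp2 fell in HFD by the smaller -0.20 ± 0.068, adjusted p = 0.0339, a call that ended without ND replicate 2 or 3, HFD replicate 1 or 3, or LU replicate 3, at -0.21 to -0.15. Gstp3 was at background.

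Among the remaining soluble classes, Gstk1, a GST of mitochondria and peroxisomes, read 12.83, 12.45 and 12.89 in ND, 12.29, 12.31 and 12.46 in HFD, and 12.68, 12.76 and 12.71 in LU. ND replicate 2 overlapped the HFD arrays. The differences were -0.37 ± 0.097, adjusted p = 0.00974 and 0.36 ± 0.097, adjusted p = 0.0156, the latter lost without HFD replicate 1, HFD replicate 2 or LU replicate 2 (0.33 to 0.34). Gstz1, which also takes part in tyrosine breakdown, read 14.92, 14.90 and 14.99 in ND, 14.62, 14.73 and 14.74 in HFD, and 14.85, 14.88 and 15.01 in LU. It gave -0.24 ± 0.061, adjusted p = 0.00707 and 0.22 ± 0.061, adjusted p = 0.0193, and its call in LU ended without HFD replicate 1 or LU replicate 3 (0.17 to 0.18). The omega-class genes parted. Gsto1 read 12.25, 12.34 and 12.19 in ND, 12.67, 12.71 and 12.68 in HFD, and 12.78, 12.79 and 12.69 in LU and rose in HFD (0.42 ± 0.056, adjusted p = 7.59e-05), with 0.071 ± 0.056, adjusted p = 0.381 in LU against HFD. Gsto2 fell in HFD (-0.45 ± 0.059, adjusted p = 6.62e-05) and rose in LU (0.22 ± 0.059, adjusted p = 0.0146), where the call ended without LU replicate 2 (0.19).

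The 3 membrane-bound transferases, a family with roles in leukotriene synthesis and lipid peroxide removal, had 2 that fell in HFD and 2 that rose in LU against HFD. Mgst3 read 14.52, 14.49 and 14.30 in ND, 13.77, 13.77 and 13.88 in HFD, and 14.04, 14.16 and 14.12 in LU, with no overlap between any groups. The level fell in HFD (-0.63 ± 0.067, adjusted p = 1.28e-05) and rose in LU against HFD (0.30 ± 0.067, adjusted p = 0.00598), and its other probe gave -0.59 and 0.29, both past the test. Mgst1 read 15.11, 15.14 and 15.08 in ND, 14.59, 14.70 and 14.72 in HFD, and 14.79, 14.94 and 14.77 in LU. In HFD it was lower (-0.44 ± 0.061, adjusted p = 0.000106). In LU against HFD its brightest probe missed the threshold (0.17 ± 0.061, adjusted p = 0.0576) and its other probe passed it (0.35, adjusted p = 0.0011 in limma). Mgst2 gave 0.097 ± 0.060, adjusted p = 0.233 in HFD against ND and rose in LU against HFD (0.27 ± 0.060, adjusted p = 0.0058).

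**Figure D4:**
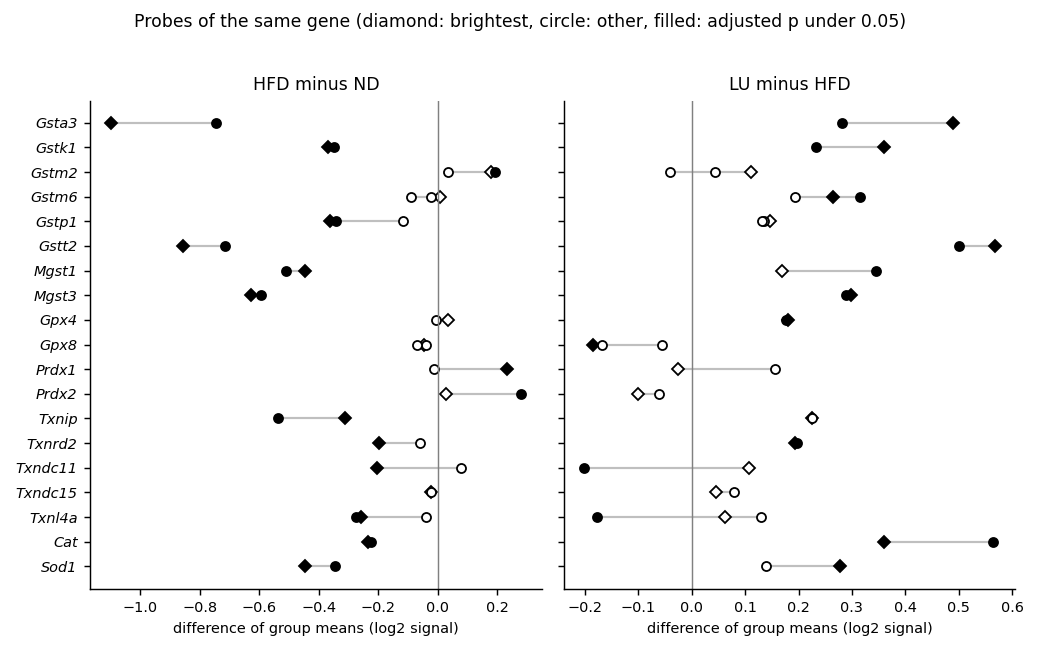
Difference of group means (log2 signal) of each kept probe of the 19 antioxidant genes with several kept probes, for HFD minus ND and LU minus HFD; diamonds are the brightest probes, circles the others, and filled symbols have an adjusted p under 0.05. The probes of Gsta3, Gstt2, Mgst3 and Cat lie on the same side of 0, while those of Prdx1 and Txndc11 lie on both sides.

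For 12 of the 19 genes with several kept probes, every probe had the same call between HFD and ND, and the same number agreed between LU and HFD. In no gene were probes called in opposite directions.

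Of the glutathione peroxidases, Gpx3 changed most. It encodes the secreted plasma peroxidase, and read 14.49, 14.79 and 14.31 in ND, 13.08, 12.75 and 13.14 in HFD, and 13.39, 13.52 and 13.44 in LU. It was 2.9-fold lower in HFD than in ND (-1.54 ± 0.12, adjusted p = 7.31e-07) and 1.37-fold higher in LU than in HFD (0.46 ± 0.12, adjusted p = 0.0117), without overlap. The call in LU against HFD ended without HFD replicate 2 or LU replicate 2, where the difference was 0.34 to 0.42. Gpx1, the main cytosolic peroxidase, read 15.50, 15.56 and 15.50 in ND, 15.38, 15.30 and 15.17 in HFD, and 15.30, 15.30 and 15.27 in LU. Its signal dropped in HFD (-0.24 ± 0.060, adjusted p = 0.00779), while in LU against HFD it gave 0.0074 ± 0.060, adjusted p = 0.943. Gpx4, which reduces lipid peroxides within membranes, read 14.43, 14.39 and 14.38 in ND, 14.43, 14.45 and 14.41 in HFD, and 14.65, 14.60 and 14.60 in LU. Its ND and HFD arrays overlapped (0.033 ± 0.049, adjusted p = 0.641), and LU lay above both, with 0.18 ± 0.049, adjusted p = 0.0164 against HFD. That call ended without LU replicate 1 (0.16). Gpx8, a peroxidase of the endoplasmic reticulum, fell in LU against HFD (-0.19 ± 0.063, adjusted p = 0.0429), and lost this call without HFD replicate 2 or 3 or any one LU array (-0.21 to -0.12). Its other probes gave -0.17 and -0.056 (adjusted p = 0.11 and 0.566 in limma).

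Of the 4 peroxiredoxins measured, 2 rose and 1 fell in HFD against ND. In LU against HFD, 0 passed limma's test after adjustment, 1 of them at an unadjusted p under 0.05, 0 by the rank product and 1, Prdx4, by the methods' t-test after adjustment. Prdx3, the mitochondrial peroxiredoxin, read 11.89, 11.84 and 11.80 in ND, 11.30, 11.62 and 11.54 in HFD, and 11.58, 11.45 and 11.57 in LU. It fell in HFD (-0.36 ± 0.076, adjusted p = 0.0025), and its LU and HFD arrays overlapped (0.049 ± 0.076, adjusted p = 0.669). Prdx4, of the endoplasmic reticulum, rose in HFD (0.28 ± 0.072, adjusted p = 0.00824), with -0.20 ± 0.072, adjusted p = 0.0523 in LU. Prdx1, a cytosolic member and Nrf2 target, read 14.77, 14.63 and 14.81 in ND, 15.01, 15.01 and 14.89 in HFD, and 14.92, 15.01 and 14.90 in LU and rose in HFD (0.23 ± 0.063, adjusted p = 0.0114), but its other probe gave -0.014 (adjusted p = 0.888 in limma). Prdx2 gave 0.026 ± 0.056, adjusted p = 0.752 on its brightest probe and 0.28 on its other (adjusted p = 0.0108 in limma).

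In the thioredoxin system, 4 of 6 genes fell in HFD against ND and 3 rose in LU against HFD. The inhibitor Txnip is counted in both. Of all named genes, 27.7% were lower in HFD and 19.7% higher in LU against HFD. Txn2 and Txnrd2, the mitochondrial thioredoxin and its reductase, are called in both comparisons. Txn2 read 10.09, 10.14 and 10.15 in ND, 9.83, 9.76 and 9.75 in HFD, and 9.94, 9.96 and 9.94 in LU, with -0.35 ± 0.050, adjusted p = 0.000157 and 0.17 ± 0.050, adjusted p = 0.024. Txnrd2 read 10.12, 9.96 and 10.04 in ND, 9.81, 9.90 and 9.81 in HFD, and 10.06, 9.98 and 10.06 in LU, with -0.20 ± 0.057, adjusted p = 0.0157 and 0.19 ± 0.057, adjusted p = 0.025. Leaving out single arrays ended 3 of these 4 calls. For Txnrd2 this happened in HFD against ND without ND replicate 1, HFD replicate 1 or HFD replicate 3 (-0.19 to -0.16), and in LU against HFD without HFD replicate 1 or 3 or LU replicate 1 or 3 (0.18). For Txn2 in LU against HFD it happened without HFD replicate 2 or 3 or any one LU array (0.16 to 0.18). The other probe of Txnrd2 gave -0.059 in HFD against ND (adjusted p = 0.467 in limma), where the call also ended with the mean of its probes, and 0.20 in LU against HFD, past the test.

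The cytosolic partners passed the test in neither of these comparisons. Txn1 gave 0.25 ± 0.096, adjusted p = 0.054 and -0.087 ± 0.096, adjusted p = 0.542, and Txnrd1 0.12 ± 0.060, adjusted p = 0.142 and 0.12 ± 0.060, adjusted p = 0.157. Txnrd1 was dim: it read 7.77 to 7.90 in ND, near background, and was detected on 2 ND arrays. Txnrd3 fell in HFD (-0.23 ± 0.052, adjusted p = 0.00378). Txnip, which binds and inhibits thioredoxin and is induced by glucose, read 15.77, 15.93 and 15.71 in ND, 15.52, 15.36 and 15.60 in HFD, and 15.69, 15.75 and 15.71 in LU. Both comparisons called it, as it fell in HFD (-0.31 ± 0.072, adjusted p = 0.0044) and rose in LU (0.23 ± 0.072, adjusted p = 0.034). The latter call ended without HFD replicate 1 or 2 or any one LU array (0.16 to 0.24). Its other probe gave -0.54 in HFD against ND, past the test, and 0.22 in LU against HFD (adjusted p = 0.102 in limma).

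The remaining 5 proteins share the thioredoxin fold or name. Txnl4b, a splicing-related protein, read 10.09, 10.08 and 10.19 in ND, 9.65, 9.72 and 9.63 in HFD, and 9.97, 10.03 and 10.00 in LU. This gene fell in HFD (-0.45 ± 0.055, adjusted p = 3.80e-05) and rose in LU (0.33 ± 0.055, adjusted p = 0.000959). Txnl4a, a spliceosome subunit, fell in HFD (-0.26 ± 0.056, adjusted p = 0.00301). So did Txndc11 (-0.21 ± 0.054, adjusted p = 0.00961), whose other probe gave 0.08 (adjusted p = 0.351 in limma) and fell in LU against HFD (-0.20, adjusted p = 0.0296 in limma). Of the other probes of Txnl4a, 1 gave -0.28 and 1 gave -0.039 (adjusted p = 0.625 in limma) in HFD against ND, and the latter fell in LU against HFD (-0.18, adjusted p = 0.0312 in limma). Txndc12 and Txndc15 passed the test in neither comparison.

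The 3 superoxide dismutases did not share a direction. Sod1, of the cytosol, read 14.55, 14.61 and 14.59 in ND, 14.15, 14.08 and 14.16 in HFD, and 14.47, 14.42 and 14.34 in LU. Its signal dropped in HFD (-0.45 ± 0.054, adjusted p = 3.82e-05) and rose in LU (0.28 ± 0.054, adjusted p = 0.00268), and its LU arrays lay between the other groups. Its other kept probe gave -0.35, past the test, and 0.14 (adjusted p = 0.222 in limma). Sod2, of the mitochondrial matrix, read 13.81, 13.71 and 13.91 in ND, 14.02, 14.14 and 14.06 in HFD, and 14.17, 14.09 and 14.22 in LU. It rose in HFD (0.26 ± 0.063, adjusted p = 0.00547), and LU against HFD gave 0.085 ± 0.063, adjusted p = 0.347. Sod3, which is secreted, read 10.71, 10.84 and 10.69 in ND, 11.05, 11.05 and 11.09 in HFD, and 10.91, 10.77 and 10.84 in LU. It rose in HFD (0.32 ± 0.058, adjusted p = 0.000983) and fell in LU (-0.22 ± 0.058, adjusted p = 0.0138), the latter lost without LU replicate 2 (-0.19) and under median scaling of the arrays. Catalase (Cat), of peroxisomes, read 13.47, 13.58 and 13.55 in ND, 13.28, 13.31 and 13.31 in HFD, and 13.65, 13.70 and 13.64 in LU. Its arrays fell in HFD (-0.23 ± 0.052, adjusted p = 0.00334) and rose 1.28-fold in LU (0.36 ± 0.052, adjusted p = 0.000379), to above every ND array, and its other probe gave -0.23 and 0.56.

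The other 2 members are Nfe2l2 and Hmox1, a classic Nrf2 target. Nfe2l2, encoding Nrf2, read 9.53, 9.86 and 9.68 in ND, 9.65, 9.68 and 9.66 in HFD, and 9.35, 9.23 and 9.46 in LU. Its ND and HFD arrays overlapped (-0.026 ± 0.082, adjusted p = 0.834), while LU arrays were all lower than those of HFD (-0.32 ± 0.082, adjusted p = 0.0128), a call that ended without LU replicate 2 (-0.26). Hmox1, the inducible heme oxygenase, which macrophages and stressed cells make, read 9.60, 10.08 and 9.60 in ND, 10.98, 10.78 and 10.58 in HFD, and 10.18, 10.45 and 10.58 in LU. It was 2.03-fold higher in HFD than in ND (1.02 ± 0.14, adjusted p = 9.45e-05), the only member to rise by 1.5-fold or more there. The LU and HFD arrays overlapped at 10.58, and the difference of -0.38 ± 0.14, adjusted p = 0.0621 missed the threshold.

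In LU against ND, 26 of the 48 genes passed (54.2%), 11 higher and 15 lower in LU, against 39.7% of named genes (29.9% of all probes kept), 21.1% higher and 18.6% lower. The members' median was -0.061, against 0.0087 for all named genes, and the call of 4 members came with a 1.5-fold change. Gpx3 (-1.08 ± 0.12, adjusted p = 4.22e-05), Gsta4 (-0.96 ± 0.070, adjusted p = 2.19e-06) and Gsta3 (-0.61 ± 0.085, adjusted p = 0.000273) were lower in LU than in ND, as was Gstt1 (-0.51 ± 0.096, adjusted p = 0.002). Hmox1 was higher (0.65 ± 0.14, adjusted p = 0.00439). So were Gsto1 (0.50 ± 0.056, adjusted p = 6.14e-05), Gstm4 (0.48 ± 0.061, adjusted p = 0.000139) and Gstm1 (0.43 ± 0.056, adjusted p = 0.000165). Cat gave 0.13 ± 0.052, adjusted p = 0.0837 on its brightest probe and 0.34 on its other, past the test (adjusted p = 0.00488 in limma), and it was also called with the mean of its probes. Gstt2 gave -0.29 ± 0.14, adjusted p = 0.136. Txnrd1, which lay near background in ND, was higher in LU (0.24 ± 0.060, adjusted p = 0.00999), a call that ended without LU replicate 1 (0.20). Of the 26 calls, 18 held whichever array was left out, and the share for all named genes was not counted.

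Genes around this system, from lists made by function, gave a mixed picture. Of all named genes, 25.2% were higher and 27.7% lower in HFD than in ND. In LU against HFD, 19.7% were higher and 18.2% lower, and 21.1% were higher in LU than in ND. The lists are short, and their counts were not tested against these shares. Among 11 other Nrf2 targets kept, 7 rose and 1 fell in HFD, 0 rose and 2 fell in LU against HFD, and 7 were higher in LU than in ND. The aldo-keto reductase Akr1b8 gave 1.15 with the fatty diet and -0.46 with luteolin added, and Srxn1, which repairs over-oxidized peroxiredoxins, gave 0.78 and -0.29, all past the test. Of 5 regulators of Nrf2 kept, Keap1 rose in LU against HFD (0.19, adjusted p = 0.0226 in limma), and Mafg, a small Maf partner, fell in HFD (-0.26) and rose in LU (0.26). Of 6 genes of oxidases that make superoxide or peroxide, 5 rose in HFD and fell in LU. Of the 48 members, 1 did so and 16 fell in HFD and rose in LU. Xdh, xanthine dehydrogenase, fell in HFD (-0.38) and gave 0.17 in LU (adjusted p = 0.112 in limma). Cyba, a phagocyte oxidase subunit, gave 1.53 and -0.77, and Ncf4 gave 1.21 and -0.57. Cyba and Ncf4 are genes of macrophages among other cells, and the macrophage sums given above had the same order of groups. The part of macrophages in the values of these oxidase genes was not tested.

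Enzymes listed for NADPH supply, not all of which make NADPH themselves, split. Of 11, 2 were higher and 4 lower in HFD, and 5 were higher and 2 lower in LU against HFD. The 5 include a gene near background that was not detected on any HFD array. Mthfd2, of mitochondrial folate metabolism, gave 0.77 and -0.51, and Idh1, a cytosolic isocitrate dehydrogenase, gave 0.47 and -0.26. Tkt, transketolase of the pentose phosphate pathway, gave -0.41 and 0.30, all past the test. Of 6 enzymes listed for lipid aldehyde removal, which include the paraoxonase Pon3, 2 rose and 4 fell in HFD, and 3 rose and 1 fell in LU. Aldh2, of mitochondria, gave -0.59 and 0.25. Of 7 genes of glutathione breakdown and amino acid supply, 2 rose and 2 fell in HFD, and 1 rose and 2 fell in LU. Anpep, a cell-surface peptidase that splits cysteinylglycine, rose in HFD by 1.77 and gave -0.71 in LU, both past the test. Chac1, which degrades glutathione inside cells, fell by 1.23 in HFD and gave 0.13 in LU (adjusted p = 0.282 in limma). Of 8 glutaredoxins, methionine sulfoxide reductases and sestrins, 2 rose and 4 fell in HFD, and 4 rose and 1 fell in LU. Sesn2, a stress-induced sestrin, gave -0.85 in HFD and -0.0070 in LU (adjusted p = 0.96 in limma). Glrx3, a glutaredoxin, gave -0.30 and 0.39, both past the test, and the methionine sulfoxide reductase Msrb1 rose in LU (0.37). Of 8 selenoproteins outside the list, 0 rose and 2 fell in HFD, and 2 rose and 2 fell in LU. Sephs2, needed to make selenocysteine, gave -0.72 and 0.28. Of 7 metallothioneins and metal handling genes, 4 rose and 1 fell in HFD, and 1 rose and 1 fell in LU. The gene that rose in LU lay near background and was detected on LU arrays only. Cp, ceruloplasmin, a copper-carrying ferroxidase, gave -0.99 in HFD, and Mt2, a metallothionein, gave 0.66. In LU against HFD they gave -0.036 and -0.11 (adjusted p = 0.75 and 0.463 in limma).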

How the data were processed

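Pooled RNA of epididymal WAT, 3 samples a group, was hybridized to Illumina MouseWG-6 v2 BeadChips, giving 9 arrays, and read in BeadStudio. The authors deposited linear signal intensities from before normalization and, beside every signal, a detection p-value; background subtraction is not stated, and the lowest signals are far above 0. The authors also deposited a log2 table of 17128 probes that they had quantile-normalized; how these were chosen is not stated, and it served as an alternative. Its values differed from those computed here by at most 0.12 on the log2 scale.

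Here, quantile normalization was applied to the intensities of all 45281 probes, followed by log2; no background was subtracted. Probes with a detection p-value under 0.05 on at least 3 arrays were kept (20558). The groups were compared in 1 limma 3.58.1 fit over all arrays (R 4.3.3), with two-sided moderated tests and Benjamini-Hochberg adjustment over the kept probes of each comparison. The fit was run on simulated data that met its own assumptions, which checks the code and not how these pooled samples behave. Symbols came from the platform table: 14264 probes had 1 symbol, 7 several and 31010 none, and 14246 matched RefSeq through the Entrez number. Each gene was read from its brightest kept probe. The number of arrays limits the precision, and the files name no slide, so slide and group cannot be told apart. Promoters were searched in Python 3 with RefSeq windows, and plots were drawn from the results.

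Members and gene lists were chosen with earlier results of these data known. Genes were named by a rule: a fixed core of enzymes, the 3 members of each role with the largest differences past the threshold and no overlap of arrays, and, from each other list, at most 3 with the largest differences. Other listed genes were given by counts. Adam7 and Xdh were named outside this rule, after their values were seen. Alternatives were neqc, median scaling, the authors' table, the 2 compared groups alone, a replicate block, a trend in the spread, other filters, other probe choices, an offset of 16, the tests of the methods, a fold threshold of 1.5 and each array left out.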

Additional observations from a re-analysis of the deposited data

How the results depend on the processing

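Counts of members past the threshold kept within 1.5 times of their value under most settings. The shares of all named genes were counted for the main setting only. With the rank product of the methods, 7 members passed in HFD against ND, 4 in LU against HFD and 4 in LU against ND. The methods' t-test after Benjamini-Hochberg gave 20, 21 and 13, and at an unadjusted p under 0.05 it gave 30, 29 and 28. Requiring a 1.5-fold change left 7, 1 and 4. Leaving out each array in turn gave 29 to 32, 14 to 29 and 20 to 27. Median scaling gave 30 (6 higher, 24 lower), 23 (22 and 1) and 21 (10 and 11), and moved the median of all genes by at most 0.041. With neqc background correction the counts were 30, 19 and 23, and in LU against HFD the calls of Gpx4, Gpx8, Gstm1, Gstm6, Gstz1 and Txnip were lost. With the dimmest probe of a gene, Prdx1 in HFD against ND gave -0.014, Txndc11 in HFD against ND 0.080 and Gstp1 in LU against ND 0.013, each with the sign turned; the cause was not tested. The replicate numbers do not pair the samples (correlations of same-numbered deviations -0.099 to 0.087 over 9 pairs), and with the replicate block the counts were 32, 25 and 25. Signal over background limits the dimmest members: 45 of the 48 genes were detected on all 9 arrays, Gclc and Gstp3 lay at background, and Txnrd1 lay near it in ND.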
